A study of Arabidopsis thaliana with 9 samples.

Results

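Some members of clade D of the protein phosphatases 2C (PP2C.D) switch off plasma membrane proton pumps (AHA). The genes described here encode such pumps and PP2C.D phosphatases, and their transcripts were measured in the apical hook of Arabidopsis thaliana. They were chosen by gene identifier from a list of 10, namely the pumps AHA1 (AT2G18960), AHA2 (AT4G30190), AHA3 (AT5G57350) and AHA11 (AT5G62670) and the phosphatases PP2C.D1 (AT5G02760), PP2C.D2 (AT3G17090), PP2C.D5 (AT4G38520), PP2C.D6 (AT3G51370), PP2C.D8 (AT4G33920) and PP2C.D9 (AT5G06750). Of these, 8 are in the deposited expression table of 16383 genes, and these 8 comprise 2 of the 4 pumps and all 6 phosphatases. AHA2 and AHA11 were not analysed here. The hook is the curved upper end of a dark-grown seedling's hypocotyl, and RNA was sequenced from hooks of 3 genotypes with 3 libraries each. The genotypes were the wild type Col-0, called WT, the mutant tmk1-1, called tmk1, and the double mutant iaa32iaa34. All seedlings were 45 h old and were kept dark at 22 °C, and each library came from a pool of about 50 hooks with the cotyledons cut away. The labels name 1 mutant line per genotype, so a line and its genotype cannot be told apart.

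In acid growth, the pumps export protons into the cell wall, which loosens and lets the cell expand. A pump is active while a threonine near its C terminus is phosphorylated and bound by a 14-3-3 protein. Some PP2C.D phosphatases remove that phosphate. Auxin induces SAUR proteins, many of which inhibit the phosphatases, and receptor-like kinases of the TMK family can phosphorylate the pumps directly. In the hook the inner side of the stem grows less than the outer side. Transcript levels, as measured here, show neither phosphorylation nor pump activity.

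The libraries held 10077093 to 13601488 reads, and expression was given as CPM, a read count expressed relative to the size of its library. TMK1, the kinase mutated in tmk1, was at 387, 468 and 469 CPM in WT and at 45.4, 29.0 and 26.8 CPM in tmk1. IAA32, a noncanonical Aux/IAA repressor, was at 55.3, 43.0 and 50.95 CPM in WT and at 6.44, 10.5 and 8.48 CPM in iaa32iaa34. Each gene was thus low in the libraries labelled as its mutant, and IAA34 was not analysed here. IAA32 was also below every WT library in tmk1, at 22.3, 25.4 and 28.5 CPM. Groups did not overlap in that direction for 18.9% of all genes. Its log2 difference in tmk1 was -0.94 ± 0.18 (SE), with an adjusted p of 0.0644 by limma. In a limma fit that blocks on the replicate number the adjusted p was 0.0460. Of 8 listed apical hook genes 7 were measured and none was at 0. By mean the highest was PIN3, an auxin exporter, at 356 to 496 CPM, and the lowest was HB4, at 3.49 to 9.37 CPM. Photosynthesis genes typical of cotyledons were also detected, and 16 of 17 were measured. Their summed level was 5601 to 11742 CPM in WT, 18743 to 25409 CPM in tmk1 and 9709 to 23928 CPM in iaa32iaa34. WT replicate 3 and iaa32iaa34 replicate 2 held the lowest sum of their genotype. Values without a library are given beside the calls they change.

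AHA1 was the dominant measured pump, and AHA3, the pump known from phloem companion cells, was a minor one. To compare genes, CPM was divided by exon length in the TAIR10.1 annotation, in which 16240 identifiers of the table were found. AHA1 reached 259.5 ± 17.7 CPM per kb in WT (SD, n = 3), above 98.6% of the genes with a length. Its nearest follower among the 15 measured AHA and PP2C.D genes was PP2C.D2, at 73.2 ± 7.09 CPM per kb. AHA3 stood at 12.6 ± 2.05 CPM per kb in WT. AHA8, a pump known from pollen, was at 3.65 ± 0.823 CPM per kb, and AHA10, AHA7 and AHA4 were each below 1 CPM per kb in WT. Over the 6 measured pumps AHA1 made up 93.6 ± 0.565% of the summed level per length in WT (SD, n = 3), against 88.3 ± 2.19% in tmk1 and 90.3 ± 1.72% in iaa32iaa34. AHA2, a close relative of AHA1 and a major pump in other tissues, is not in that sum.

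Among the phosphatases, 4 members had the highest WT means. In WT PP2C.D2 stood at 73.2, PP2C.D6 at 68.7, PP2C.D5 at 58.3 and PP2C.D1 at 51.5 CPM per kb. The WT libraries of each neighbouring pair in that order overlapped, so the order of neighbours is not resolved. PP2C.D2, at 67.6 CPM per kb or more in the WT libraries, was above PP2C.D5, at 63.1 or less. PP2C.D8 followed at 26.2 ± 3.14 CPM per kb, and PP2C.D9 was the lowest phosphatase at 5.17 ± 0.422 CPM per kb. The other clade members PP2C.D7, PP2C.D3 and PP2C.D4 lay at 37.1, 27.9 and 18.3 CPM per kb. PP2C.D7, at 34.7 to 38.8 CPM per kb in the WT libraries, was inside the range of PP2C.D1, at 31.0 to 77.4, and in iaa32iaa34 its mean of 34.5 was above the 30.8 of PP2C.D1. The step from PP2C.D1 to PP2C.D7 is thus not resolved either. All WT libraries of PP2C.D2, PP2C.D6 and PP2C.D5, the lowest at 52.1 CPM per kb, were above those of PP2C.D7. PP2C.D2, PP2C.D5 and PP2C.D6 are the members known to restrain hypocotyl elongation together, and they held 71.1 ± 4.61% of the summed level of the 6 phosphatases in WT (SD, n = 3). Of the sum over all 9 measured PP2C.D genes they made up 20.0, 16.0 and 18.8% in WT.

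**Figure D1:**
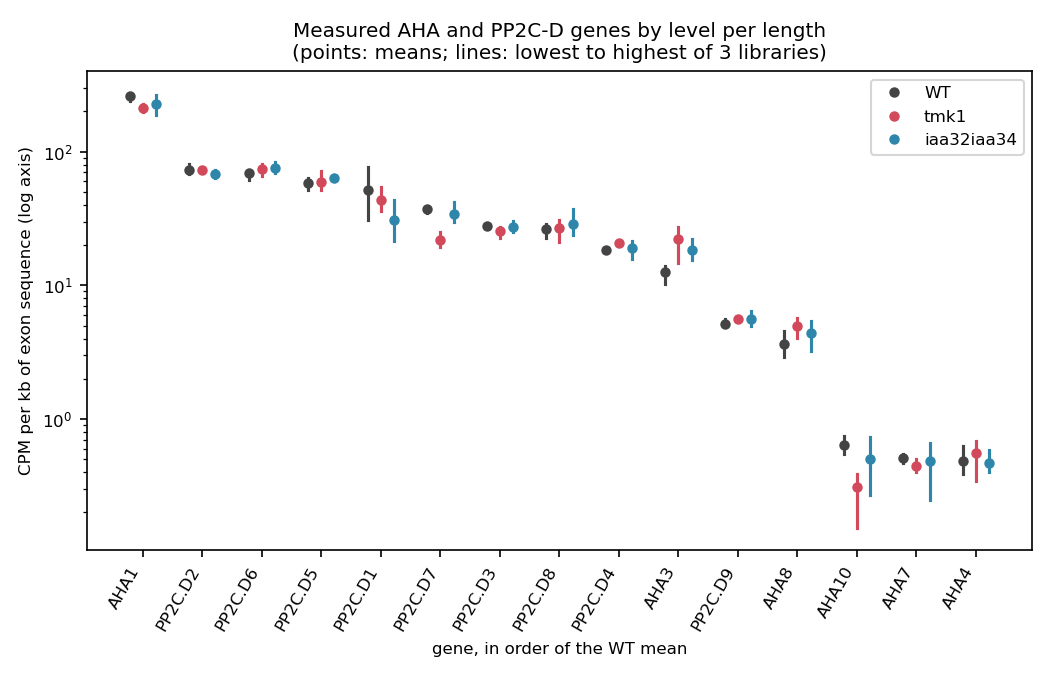
Level per length of the 15 measured AHA and PP2C.D genes, as CPM per kb of exon sequence on a log axis; points are genotype means and lines run from the lowest to the highest of 3 libraries. AHA1 lies above every other gene shown, and 4 phosphatases with means between 51.5 and 73.2 CPM per kb in WT follow, with WT ranges that overlap between neighbours.

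The first question was whether loss of TMK1 altered the transcripts of the pumps. AHA1 was at 1256, 1207 and 1098 CPM in WT and at 1045, 910 and 944 CPM in tmk1. In these CPM values the highest tmk1 library was thus lower than the lowest WT library. This order was not stable. The TMM scaling factors were 0.959 for tmk1 replicate 1 and 1.01 for WT replicate 3. By median-of-ratios scaling they were 0.961 and 1.01. Dividing by either set puts tmk1 replicate 1 above WT replicate 3. The difference was -0.30 ± 0.18 on the log2(CPM + 1) scale (SE, 95% interval -0.69 to 0.10), with an adjusted p of 0.364 by limma, and so did not pass the threshold of 0.05. For scale, groups that did not overlap in the lower direction were found for 18.9% of all genes, and the median of all genes was -0.06.

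AHA3 went the other way in mean. It was at 50.5, 48.9 and 37.0 CPM in WT and at 98.5, 53.3 and 87.8 CPM in tmk1. Every tmk1 library was above every WT library, although tmk1 replicate 2 lay close to WT. The log2 difference was 0.77 ± 0.23 (SE, 95% interval 0.25 to 1.28), a 1.70-fold value, with an unadjusted p of 0.00785 and an adjusted p of 0.113 by limma. The adjusted p ranged from 0.0461 to 0.347 over 17 other settings. The lowest came from leaving out tmk1 replicate 2, the only setting to pass the threshold, where the log2 difference was 1.03 and 1.01% of all genes passed. Groups not overlapping in the higher direction were found for 11.5% of all genes.

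The 6 phosphatases lay close to WT in tmk1, and no group of 3 libraries was apart from WT. PP2C.D2 was at 173, 151 and 144 CPM in WT and at 165, 149 and 149 CPM in tmk1. Its tmk1 libraries lay inside the WT range, and the 95% interval of the fold was 0.816 to 1.21. PP2C.D5 was at 153, 134 and 162 CPM in WT and at 133, 183 and 141 CPM in tmk1, with 1 tmk1 library above and 1 below the WT range. PP2C.D6 was at 157, 156 and 134 CPM in WT and at 175, 143 and 163 CPM in tmk1. Its upper tmk1 libraries exceeded WT while the lowest fell inside the WT range. The intervals of the fold were 0.802 to 1.27 for PP2C.D5 and 0.870 to 1.33 for PP2C.D6.

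PP2C.D8 was at 57.8, 48.8 and 62.0 CPM in WT and at 61.4, 45.2 and 66.5 CPM in tmk1. The tmk1 libraries spanned the whole WT range, and the interval of the fold was 0.746 to 1.39. PP2C.D9 was at 10.8, 9.58 and 9.30 CPM in WT and at 10.7, 10.9 and 10.8 CPM in tmk1, with an interval of 0.869 to 1.35. In the TAIR10.1 annotation PP2C.D8 overlaps SSN2 and PP2C.D9 overlaps AT5G06755 on the same strand. PP2C.D1 overlaps MOS11 and AT5G00875 on the opposite strand. How reads in such overlaps were counted is not known, and for PP2C.D1 this turns on the strand setting, so the values of these 3 phosphatases are uncertain.

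PP2C.D1 is known to act in the apical hook, and it was the most variable member. Its 3 libraries stood at 119, 71.2 and 47.8 CPM in WT, at 83.5, 56.0 and 62.1 CPM in tmk1 and at 33.3, 67.7 and 41.6 CPM in iaa32iaa34. The 3 genotypes overlapped, and WT alone spanned more than either mutant. The SD within genotypes on the log2 scale was larger than that of 93.4% of all genes, against 5.96% for PP2C.D2. For tmk1 against WT the log2 difference was -0.16 ± 0.33 (SE, 95% interval -0.90 to 0.58), with an adjusted p of 0.820 by limma. At this spread, folds from 0.537 to 1.49 are inside the interval.

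**Figure D2:**
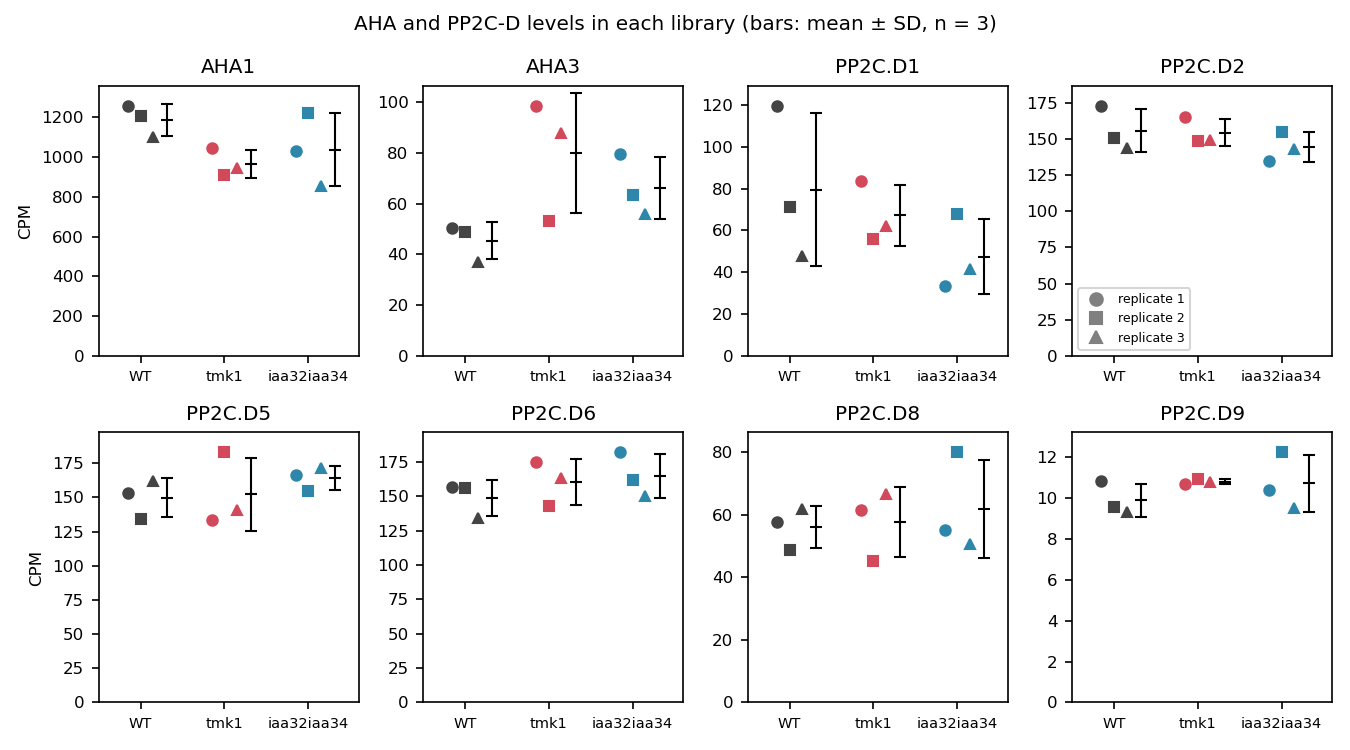
CPM of the 8 measured members in each library by genotype, with replicates as circles, squares and triangles and bars for the mean ± SD of 3 libraries; each panel has its own axis from 0. In AHA3 all mutant libraries, from 53.3 to 98.5 CPM, lie above the highest WT library at 50.5 CPM, and PP2C.D1 has the widest relative spread in WT.

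In tmk1 against WT, 0 of the 8 members passed the threshold by limma, and 1 of 8, AHA3, had an unadjusted p under 0.05. Over all genes, 52 or 0.317% passed, 21.4% had an unadjusted p under 0.05 and 30.4% had groups that did not overlap in either direction, against 2 of the 8 members. The 2 were AHA1 and AHA3, of which AHA1 overlapped WT with TMM or median-of-ratios scaling. A fit that blocks on the replicate number called 323 genes, or 1.97%, and 0 members.

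The second question was the effect of losing IAA32 and IAA34, set against the same WT libraries, so the comparisons are not independent of each other. AHA3 was at 79.6, 63.3 and 55.8 CPM in iaa32iaa34, and all of these libraries lay above WT. Its log2 difference was 0.53 ± 0.23 (SE, 95% interval 0.01 to 1.05), with an unadjusted p of 0.0450 and an adjusted p of 0.292 by limma. Groups not overlapping in the higher direction were found for 6.54% of all genes. AHA1 was at 1028, 1222 and 856 CPM in iaa32iaa34, of which replicate 2 lay inside the WT range. Its log2 difference was -0.21 ± 0.18, with an interval of -0.61 to 0.19 and an adjusted p of 0.576 by limma.

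PP2C.D1 had the lowest mean in iaa32iaa34, at 47.5 ± 17.9 CPM against 79.5 ± 36.6 CPM in WT (SD, n = 3). Its log2 difference was -0.69 ± 0.33 (SE, 95% interval -1.43 to 0.04), with an adjusted p of 0.327 by limma. The value moved with single libraries, from -0.35 without WT replicate 1 to -1.01 without WT replicate 3, and it was -0.98 without iaa32iaa34 replicate 2. None of these passed the threshold.

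The other phosphatases had means near those of WT in iaa32iaa34. In iaa32iaa34 PP2C.D2 was at 135, 155 and 143 CPM. PP2C.D5 was at 167, 155 and 171 CPM there. PP2C.D6 was at 182, 161 and 150 CPM there. All of these groups overlapped WT, and the intervals of the fold were 0.762 to 1.13, 0.872 to 1.38 and 0.893 to 1.37. PP2C.D8 was at 55.2, 79.9 and 50.7 CPM and PP2C.D9 at 10.4, 12.2 and 9.51 CPM. For both, replicate 2 was above every WT library and the other two replicates were not. In this comparison 0 of 8 members passed by limma and 1 of 8, AHA3, had an unadjusted p under 0.05. Over all genes, 0.153% passed, 16.6% had an unadjusted p under 0.05, and groups did not overlap for 14.6% in the lower direction and 21.1% in either, against 1 of the 8 members.

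Between the mutants all 8 members overlapped. The widest log2 difference was that of PP2C.D1, at 0.53 ± 0.33 for tmk1 over iaa32iaa34, with an interval of -0.20 to 1.27. AHA3 differed by 0.23 ± 0.23, with an interval of -0.28 to 0.75, so the data resolve no order between the mutants for this pump. With limma 0 of 8 members passed and 0 of 8 had an unadjusted p under 0.05. Over all genes 0.0549% passed, 8.12% had an unadjusted p under 0.05 and 13.3% did not overlap.

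**Figure D3:**
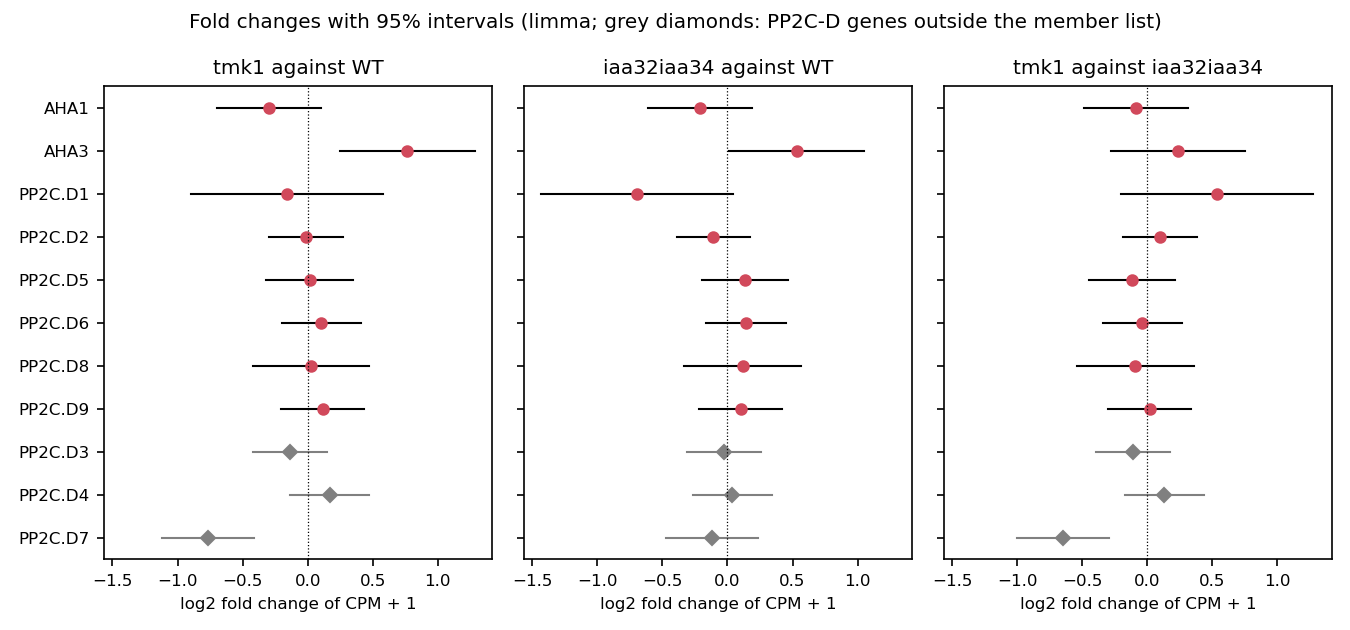
Log2 fold change of CPM + 1 with 95% intervals from limma for the 8 measured members (red circles) and the other 3 PP2C.D genes (grey diamonds) in each comparison. AHA3 has intervals above 0 in both mutants against WT, at 0.25 to 1.28 and 0.01 to 1.05, and PP2C.D7 lies below 0 in tmk1.

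The summed level of the phosphatases differed between genotypes by less than the spread between libraries. Summed over the 6 members, the level per length was 283 ± 35.3 in WT, 282 ± 14.8 in tmk1 and 273 ± 19.5 CPM per kb in iaa32iaa34 (SD, n = 3). PP2C.D2 made up 25.9, 25.7 and 24.8% of it in WT, tmk1 and iaa32iaa34. PP2C.D1 made up 17.7 ± 5.98% in WT, 15.4 ± 2.46% in tmk1 and 11.1 ± 3.41% in iaa32iaa34, with overlapping libraries. The summed pumps were at 277 ± 20.6, 240 ± 21.8 and 251 ± 42.1 CPM per kb in the same order. AHA3 took 4.03 to 4.80% of the pump sum in WT, 6.75 to 10.4% in tmk1 and 6.04 to 8.70% in iaa32iaa34. This share rests on the same AHA3 values as above and was not tested separately.

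Markers of other cell types were set beside AHA3. Of 11 listed phloem genes 9 were measured, and all 9 had a higher mean in each mutant than in WT. Over all genes 58.1% had a lower mean in tmk1 and 58.2% in iaa32iaa34. The median log2 difference of the 9 was 0.26 in tmk1 and 0.35 in iaa32iaa34. By limma 0 of 9 passed the threshold in either mutant. An unadjusted p under 0.05 was found for 1 in tmk1 and 3 in iaa32iaa34, against 21.4% and 16.6% of all genes. The summed level of the 9 was 208 to 233 CPM in WT, 219 to 292 CPM in tmk1 and 288 to 308 CPM in iaa32iaa34, and none was at 0. In tmk1 replicate 2, where AHA3 was lowest among the mutant libraries, 5 of the 9 phloem genes were above all WT libraries, 2 were inside the WT range and 2 were below it. In the other 5 mutant libraries 6 to 8 of the 9 were above all WT libraries. In bulk tissue, the number of cells of a type and the RNA per cell cannot be told apart. The 16 photosynthesis genes also had higher means, by a median of 1.38 and 1.13 on the log2 scale, and 0 of 16 passed the threshold by limma in either mutant while 16 and 15 had an unadjusted p under 0.05. In tmk1 4 of 16 passed with the replicate block and 2 without tmk1 replicate 2 or without iaa32iaa34 replicate 1. In the fit on only the 2 genotypes or without iaa32iaa34 replicate 2, 14 of 16 passed. Over all 16383 genes, 323 passed with the block and 704 without iaa32iaa34 replicate 2, against 52 in the main fit. In iaa32iaa34 14 of 16 passed without its replicate 2, where 645 of all genes passed, against 25 in the main fit. In that replicate the mean deviation from the 9 libraries was -0.76 for the photosynthesis genes and 0.05 for AHA3 on the log2 scale. The part of these markers in the AHA3 values was not tested.

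For PP2C.D1 the list of endodermis genes was set beside it, of which 7 of 8 were measured and none was at 0. Their summed level ran from 58.7 to 528 CPM in WT, 53.2 to 232 CPM in tmk1 and 85.7 to 410 CPM in iaa32iaa34. In WT and in tmk1 the library with the highest PP2C.D1 had the lowest endodermis level. In iaa32iaa34 the library with the lowest PP2C.D1, replicate 1, also had the lowest endodermis level. Their part in the spread of PP2C.D1 was not tested.

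**Figure D4:**
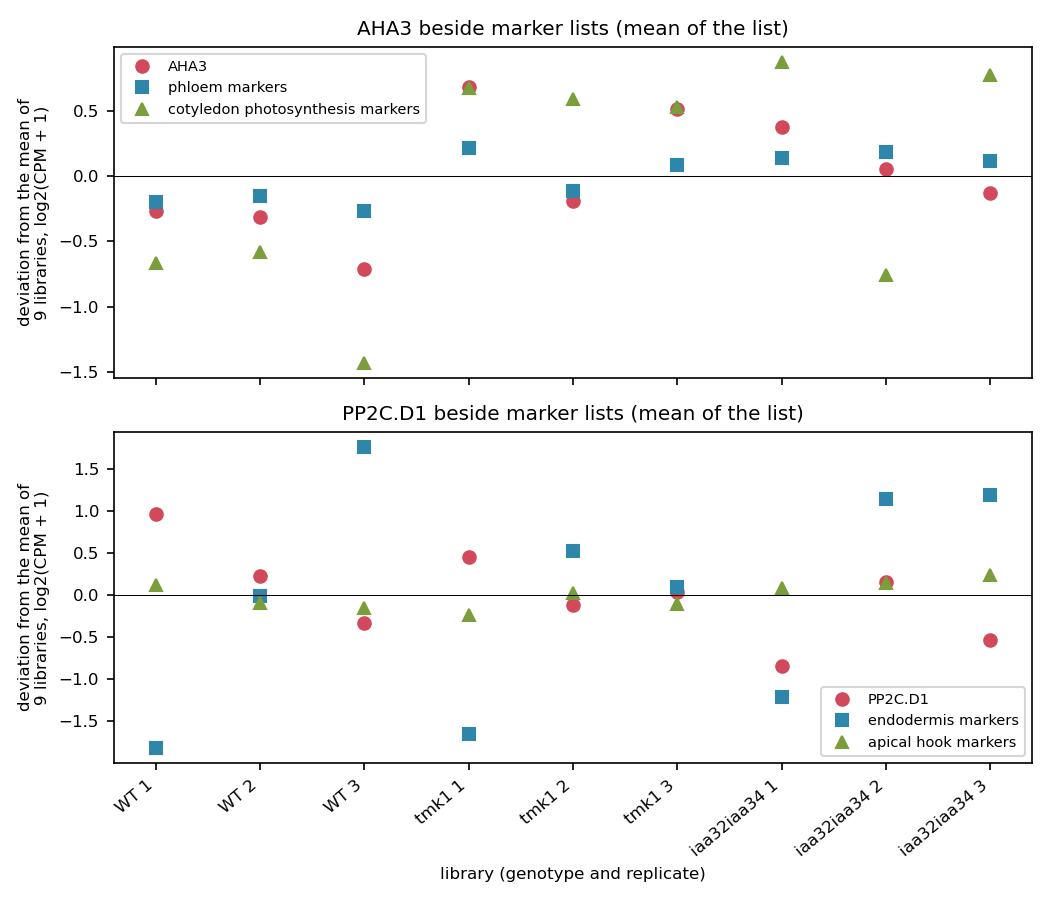
Deviation of AHA3 (top) and PP2C.D1 (bottom) from the mean of the 9 libraries on the log2(CPM + 1) scale, beside the mean deviation of the marker lists. AHA3 and the phloem genes are below 0 in all WT libraries and in tmk1 replicate 2, whereas in iaa32iaa34 replicate 3 AHA3 is at -0.13 and the phloem genes at 0.12, and the photosynthesis genes differ in sign from AHA3 in tmk1 replicate 2 and in iaa32iaa34 replicates 2 and 3.

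Across the 9 libraries the members did not move as a block. Of 28 member pairs only 2 had a Pearson r above 0.8, and the median was 0.223. PP2C.D1 and PP2C.D2 had r = 0.972 and a Spearman rho of 0.983, and r was 0.908 without the 2 libraries farthest from the median of PP2C.D1. AHA3 and PP2C.D6 had r = 0.856 and rho = 0.817, and r was 0.895 without the 2 libraries farthest from the median of AHA3. Within genotypes these values were 0.974 and 0.963. All pairs share the same libraries and depths, and these values are descriptions without a test. Among 13458 genes of sufficient level, those most like AHA1 over the 9 libraries were AT1G05120, AT2G35330 and AT2G37520, with r of 0.988, 0.964 and 0.962. Those most like PP2C.D6 were AT1G73066, AT2G12490 and FRL2, with r of 0.970, 0.968 and 0.963.

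Around these genes, the other acid growth genes were counted by role. Of the 3 other PP2C.D genes, 0 passed in tmk1 by limma and 1 had an unadjusted p under 0.05. That gene, PP2C.D7, was at 73.3, 66.9 and 74.8 CPM in WT, at 37.1, 48.2 and 40.4 CPM in tmk1 and at 57.6, 81.6 and 60.7 CPM in iaa32iaa34. Every tmk1 library was below every WT and every iaa32iaa34 library, and iaa32iaa34 overlapped WT. Its log2 difference in tmk1 was -0.77 ± 0.16 with an adjusted p of 0.0697 by limma, and with the replicate block the adjusted p was 0.0450. The adjusted p ranged from 0.0230 to 0.242 and passed the threshold in 3 of 17 other settings. These were the block, the fit on only these 2 genotypes and the fit without iaa32iaa34 replicate 2. Each of the 3 also called more genes over all than the 52 of the main fit. The block called 323 and the fit without iaa32iaa34 replicate 2 called 704 of 16383 genes. In iaa32iaa34 against WT it was -0.12 ± 0.16, and between the mutants it was -0.65 ± 0.16 with an adjusted p of 0.350 by limma.

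Of the 4 measured among 7 other pumps, 0 passed in either mutant by limma, and 1 in tmk1 and 0 in iaa32iaa34 had an unadjusted p under 0.05. AHA10, a pump known from the seed coat, was at 1.55, 2.11 and 1.79 CPM in WT and at 0.434, 1.09 and 1.103 CPM in tmk1, values of as few as 5 reads. AHA8 was at 12.1 ± 2.73, 16.4 ± 2.87 and 14.5 ± 3.60 CPM (SD, n = 3) over the WT, tmk1 and iaa32iaa34 libraries.

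Of 12 listed 14-3-3 genes, whose proteins bind and activate the phosphorylated pump, 9 were measured and 0 passed by limma in either mutant. An unadjusted p under 0.05 was found for 2 in tmk1 and 0 in iaa32iaa34, against 21.4% and 16.6% of all genes. In tmk1 7 of 9 had lower means, against 58.1% of all genes, with a median log2 difference of -0.28 against -0.06 over all genes. In iaa32iaa34 6 of 9 had lower means, against 58.2% of all genes, with a median of -0.20. GRF5 was at 129, 129 and 156 CPM in WT and at 92.2, 108 and 102 CPM in tmk1, with an adjusted p of 0.110 by limma. GRF7 had the smallest p of the list in iaa32iaa34, at an adjusted p of 0.441.

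Of 16 measured pump regulators, such as the kinases TMK1, TMK3, TMK4, FER and BRI1, 0 rose and 1 fell in tmk1. The gene that fell was TMK1 itself, at a log2 difference of -3.70 ± 0.19 with an adjusted p of 9.04e-06 by limma. Its relatives TMK3 and TMK4 were at 188 ± 5.68 and 252 ± 40.4 CPM in WT and at 184 ± 8.91 and 254 ± 11.3 CPM in tmk1 (SD, n = 3). By limma 2 of 16 had an unadjusted p under 0.05 in tmk1, against 21.4% of all genes. These were TMK1 and PSY1R, which was at 15.4, 25.3 and 18.5 CPM in WT and at 31.5, 26.5 and 31.4 CPM in tmk1. The log2 difference of PSY1R was 0.60 ± 0.20 (SE), with an adjusted p of 0.133 by limma. In iaa32iaa34 0 of 16 passed by limma and 1 had an unadjusted p under 0.05. That gene was RCN1, a scaffold subunit of protein phosphatase 2A, at 148 ± 8.50 CPM in WT and 119 ± 9.76 CPM in iaa32iaa34, with an adjusted p of 0.244.

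Of 16 measured SAUR genes, 0 rose and 1 fell in tmk1, and 15 of 16 had lower means, against 58.1% of all genes, with a median log2 difference of -0.28. Over the other settings 11 to 15 were lower and the median ran from -0.52 without WT replicate 1 to -0.06 without WT replicate 3. By limma 2 of 16 had an unadjusted p under 0.05 in the main fit, against 21.4% of all genes. These were SAUR17 and SAUR72, of which SAUR72 had the higher mean in tmk1 than in WT. The gene that fell was SAUR17, whose protein is known to bind PP2C.D1 in the hook without inhibiting it. It was at 3.36, 1.95 and 2.05 CPM in WT, at 0.17, 0.30 and 0.51 CPM in tmk1 and at 0.66, 1.51 and 1.03 CPM in iaa32iaa34. All tmk1 libraries lay below all others, at as few as 2 reads. Every gene of the table reached 1 CPM in at least 3 libraries, and SAUR17 did so only through WT and iaa32iaa34. The log2 difference was -1.36 ± 0.23 (SE) and ran from -2.23 to -0.57 over 16 other settings. The adjusted p was 0.0485 by limma and ranged from 0.0221 to 0.242 over these settings, of which 5 passed the threshold. The replicate block passed at an adjusted p of 0.0427 by limma and called 323 of 16383 genes, against 52 in the main fit. SAUR50, which inhibits PP2C.D1, was at 65.7 ± 21.1 CPM in WT, 62.2 ± 7.94 CPM in tmk1 and 64.2 ± 13.5 CPM in iaa32iaa34 (SD, n = 3). In iaa32iaa34 0 of 16 SAUR genes passed by limma, and 2 had an unadjusted p under 0.05. There 11 of 16 had lower means, against 58.2% of all genes, and the list median was -0.06. It had no stable sign, being 0.01 with either other scaling and running from -0.44 without iaa32iaa34 replicate 3, with all 16 lower, to 0.12 without WT replicate 3, with 4 of 16 lower. Several SAUR genes are near-identical copies, so their separate values are uncertain.

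The proton pumps of the vacuole, which acidify an inner compartment rather than the wall, were counted beside them. Of 11 measured, 0 passed in either mutant by limma and 0 had an unadjusted p under 0.05, and all 11 had lower means in each mutant, against 58.1% and 58.2% of all genes. The medians were -0.20 in tmk1 and -0.15 in iaa32iaa34, where 9 to 11 were lower over the other settings. VHA-C, a subunit of the vacuolar ATPase, was at 176, 180 and 201 CPM in WT and at 128, 158 and 157 CPM in tmk1. VHA-B2 was at 141 ± 5.15 CPM in WT and 116 ± 13.3 CPM in iaa32iaa34.

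Of 7 potassium uptake genes, whose channels and transporters use the voltage the pumps set up, 0 passed by limma in either mutant and 1 in each had an unadjusted p under 0.05. AKT2, a potassium channel known from phloem, was at 7.46, 10.2 and 9.13 CPM in WT, at 11.4, 14.98 and 13.2 CPM in tmk1 and at 31.1, 14.7 and 22.0 CPM in iaa32iaa34. Every iaa32iaa34 library was above every WT library. Its log2 difference was 1.20 ± 0.24 with an adjusted p of 0.126 by limma, and this was 0.0117 without iaa32iaa34 replicate 2, the only other setting of 17 to pass. In that setting 645 of 16383 genes passed, against 25 in the main fit. KAT1, a potassium channel, was at 26.4 ± 5.60 CPM in WT and 18.0 ± 4.04 CPM in tmk1, with an adjusted p of 0.188. Of 6 measured reference genes 0 passed in either mutant by limma, and 1 in tmk1 and 0 in iaa32iaa34 had an unadjusted p under 0.05. Their medians were -0.10 and -0.08, and the genes of smallest p were TIP41-like in tmk1, at an adjusted p of 0.220, and SAND in iaa32iaa34, at 0.442.

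**Figure D5:**
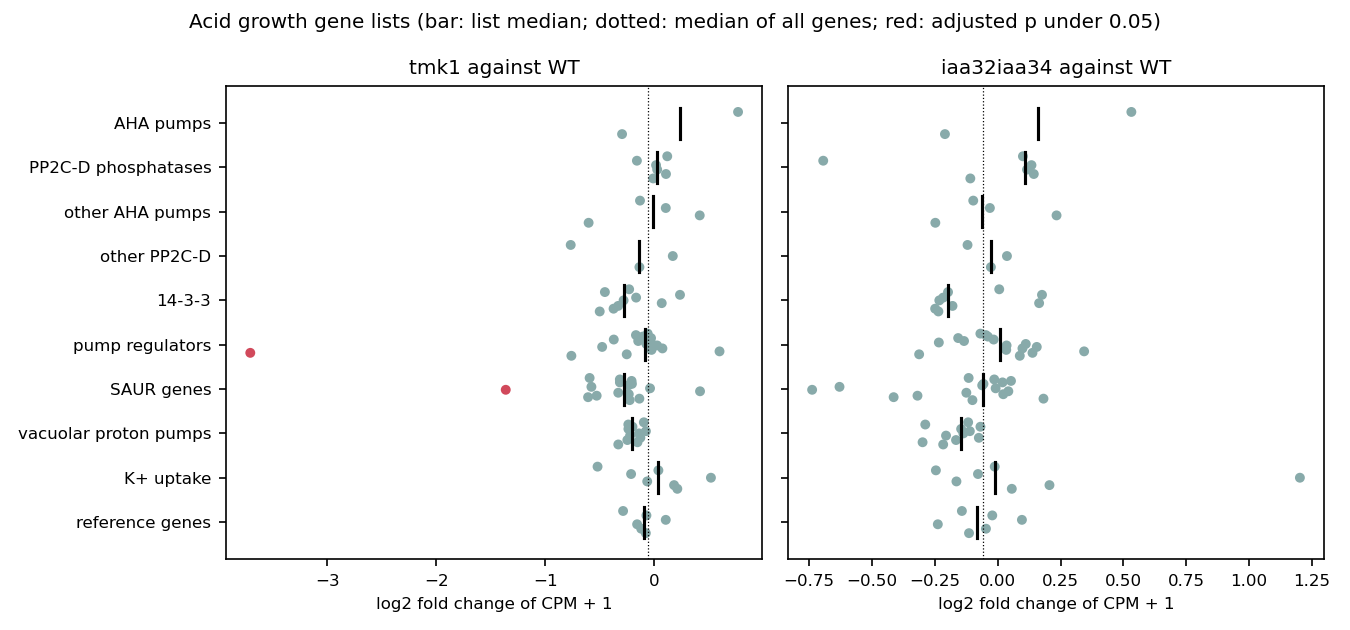
Log2 fold change of CPM + 1 of each measured gene in the member groups and the pathway lists, in both mutants against WT; bars are list medians, the dotted line is the median of all genes, and red points passed the threshold. TMK1 at -3.70 and SAUR17 at -1.36 in tmk1 are the red points, and the panels have different horizontal scales.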

How the data were processed

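RNA was measured in 9 libraries, which the labels' protocols describe as strand-specific. The authors deposited CPM values, and the submitters' processing notes name HISAT and HTSeq. As the genome build, annotation and strand setting were not given in the sources used here, no coordinates or sequences are printed. Column steps, which equal 1 read to within 0.01, gave library totals, and 3 reads were worth 0.221 to 0.298 CPM.

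Values were taken as log2(CPM + 1), which understates changes of low genes. All libraries entered 1 fit with 3 genotypes (limma 3.58.1, R 4.3.3, mean-variance trend), with two-sided tests and Benjamini-Hochberg adjustment over 16383 genes at 0.05. The script was tested on simulated data. The labels describe biological triplicates, each a pool of hooks.

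Same-numbered WT and tmk1 libraries had r from 0.129 to 0.528 in their deviations from the genotype means, which meets the rule for pairing. Only replicate 1, at 0.528, stood out. Differently numbered WT replicate 3 and tmk1 replicate 2 had r = 0.304, above the 0.129 and 0.140 of same-numbered replicates 2 and 3. The other differently numbered pairs of these genotypes were at 0.015 or lower. Blocked values stand beside results they change. The labels name no shared batch.

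The members and lists were chosen with earlier results of these data known. Named genes were the members, TMK1, IAA32, list genes past the threshold and otherwise the gene of smallest p per list and mutant. PIN3, HB4, TMK3, TMK4, PSY1R, SAUR50 and SAUR72 were named after their values were seen. Genes like AHA1 and PP2C.D6 were those with the 3 highest Pearson r among genes with a mean of at least 5 CPM. Symbols and exon lengths came from TAIR10.1.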

Additional observations from a re-analysis of the deposited data

How the results depend on the processing

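Of 728 single-gene results under 17 other settings, 689 kept their direction and side of the threshold and 19, all of them members, changed sign. PP2C.D2 in tmk1 against WT was 0.044 with TMM and 0.054 with median-of-ratios scaling, and PP2C.D9 between the mutants was -0.00084 with TMM scaling. The other sign changes came from leaving out 1 library, over which the log2 difference in tmk1 against WT ran from -0.47 (without WT replicate 3) to 0.18 (without WT replicate 1) for PP2C.D1, -0.065 to 0.066 for PP2C.D2, -0.12 to 0.10 for PP2C.D5 and -0.086 to 0.19 for PP2C.D8. In iaa32iaa34 against WT PP2C.D8 ran from -0.078 to 0.24. Between the mutants the ranges were -0.22 to 0.040 for AHA1, -0.10 to 0.044 for PP2C.D6, -0.22 to 0.10 for PP2C.D8 and -0.058 to 0.11 for PP2C.D9. The number of genes past the threshold depended on the setting, and the cause was not tested. In tmk1 against WT it was 31 with a pseudocount of 0.25, 27 with a CPM minimum of 5, 32 with TMM, 31 with median-of-ratios scaling and 620 with only the 2 groups compared. Leaving out single libraries gave 6 to 704, the highest without iaa32iaa34 replicate 2. In iaa32iaa34 against WT it was 25, and 16 with a CPM minimum of 5, 12 with only the 2 groups and 5 to 645 with a library left out, again highest without iaa32iaa34 replicate 2. Between the mutants it was 9, and 3 with only the 2 groups and 3 to 8 with a library left out. Members past the threshold ranged from 0 to 1 in tmk1 against WT and were 0 in the other comparisons. With the replicate block the counts were 323 for tmk1 against WT and 11 for iaa32iaa34 against WT, and no member's call changed. Same-numbered libraries did not pair consistently for iaa32iaa34 (r from -0.398 to 0.459 with WT and from -0.141 to 0.364 with tmk1). The planned edgeR and DESeq2 fits on reads recovered from the CPM steps were not run. Depth limits SAUR17 and AHA10, with as few as 2 and 5 reads, while the member of lowest level, PP2C.D9, had at least 109 reads in each library.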
